A study of Mus musculus with 4 samples.

Results

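Cytosolic ribosomal protein genes were examined in intestinal stem cells with and without CREPT, a nuclear protein encoded by Rprd1b. Members were the genes whose symbol begins with Rpl or Rps followed by a number and, where present, one of the suffixes a, al, x, l, l1 or a1, together with Rplp0, Rplp1, Rplp2 and Rpsa. The rule leaves out the Rps6k kinases and genes named as pseudogenes, but it admits Rps4l and Rpl32l, which the annotation lists as pseudogenes. This gave 86 genes of the 18436 in the table, 53 of the large subunit and 33 of the small subunit.

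The cells came from C57BL/6 mice of 2 genotypes. Lgr5-CREPT-WT mice carried the Lgr5-EGFP-IRES-creERT2 allele, which drives GFP and a tamoxifen-inducible Cre from the Lgr5 promoter, and Lgr5-CREPT-KO mice carried that allele with CREPT fl/fl. Both genotypes received tamoxifen, and GFP-high cells were sorted from dissociated crypts of 2 mice of each genotype. The GFP allele is known to be expressed in patches of crypts, and the controls had no floxed allele. Mice of both sexes at 6 to 8 weeks of age were used, and the sex of each of the 4 is not recorded. The genotypes are called WT and KO below. RNA levels are in FPKM, fragments scaled to transcript length and to the mapped total of the library, with 1 column for each mouse. The FPKM of all genes summed to 495758 and 499327 in the WT mice and to 468830 and 473662 in the KO mice. FPKM does not give the number of reads. Among genes of low level, the most frequent log2 ratio of each mouse to WT mouse 1 lay between -0.05 and 0.05.

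The cytosolic ribosome is built from a large and a small subunit, each a shell of proteins on ribosomal RNA. Its proteins are needed in fixed proportions and are made mostly from short, abundant mRNAs that begin with a run of pyrimidines, the 5′ terminal oligopyrimidine (TOP) motif, through which mTORC1 and Larp1 control their translation. In the crypt, stem cells divide continuously and therefore make ribosomes at a high rate.

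Rprd1b, the targeted gene, was at 17.69 and 18.09 FPKM in the WT mice and at 6.65 and 7.36 FPKM in the KO mice. The groups did not overlap, and Rprd1b fell (log2 fold change -1.29 ± 0.09, standard error, limma adjusted p = 0.028, between 0.0113 and 0.295 over the alternatives). Fold changes are differences of log2(FPKM + 0.5), KO minus WT, and p-values were adjusted over the 12621 genes whose mean reached 0.5 FPKM. The stem cell markers were present in all 4 libraries. None of the 9 passed (limma; 0 lower and 4 higher at an unadjusted p under 0.05), their median log2 fold change was 0.17, and 6 had both KO mice above both WT mice. Of all genes tested, 15.2% were lower and 9.27% higher at that p, and 25.6% showed that order. The 9 markers summed to 6643 and 6470 FPKM in WT and 7128 and 6877 FPKM in KO. Their part in the ribosomal protein values was not tested. Lgr5 itself was at 47.67 and 37.7 FPKM in WT and at 52.04 and 60.1 FPKM in KO, and Olfm4, the most abundant of the 9 stem markers, was between 4932 and 5351 FPKM.

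Ribosomal protein genes were among the genes of highest FPKM in these libraries. They were 68 of the 100 genes with the highest mean FPKM, and 53 members had a mean above 1000 FPKM. Of the large subunit, Rplp1, an acidic protein of the stalk that recruits elongation factors, was highest, at 3620 and 3499 FPKM in WT and 3111 and 3016 FPKM in KO. Rpl41, the shortest member with 25 residues, was at 2868 and 3094 FPKM in WT and at 2599 and 2721 FPKM in KO. Both genes had both KO mice below both WT mice, and neither passed the test (limma adjusted p = 0.223 and 0.351). Of the small subunit, Rps2, which lines the mRNA entry channel, was highest, at 3094 and 3418 FPKM against 2855 and 3104 FPKM, and here the groups overlapped.

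**Figure D1:**
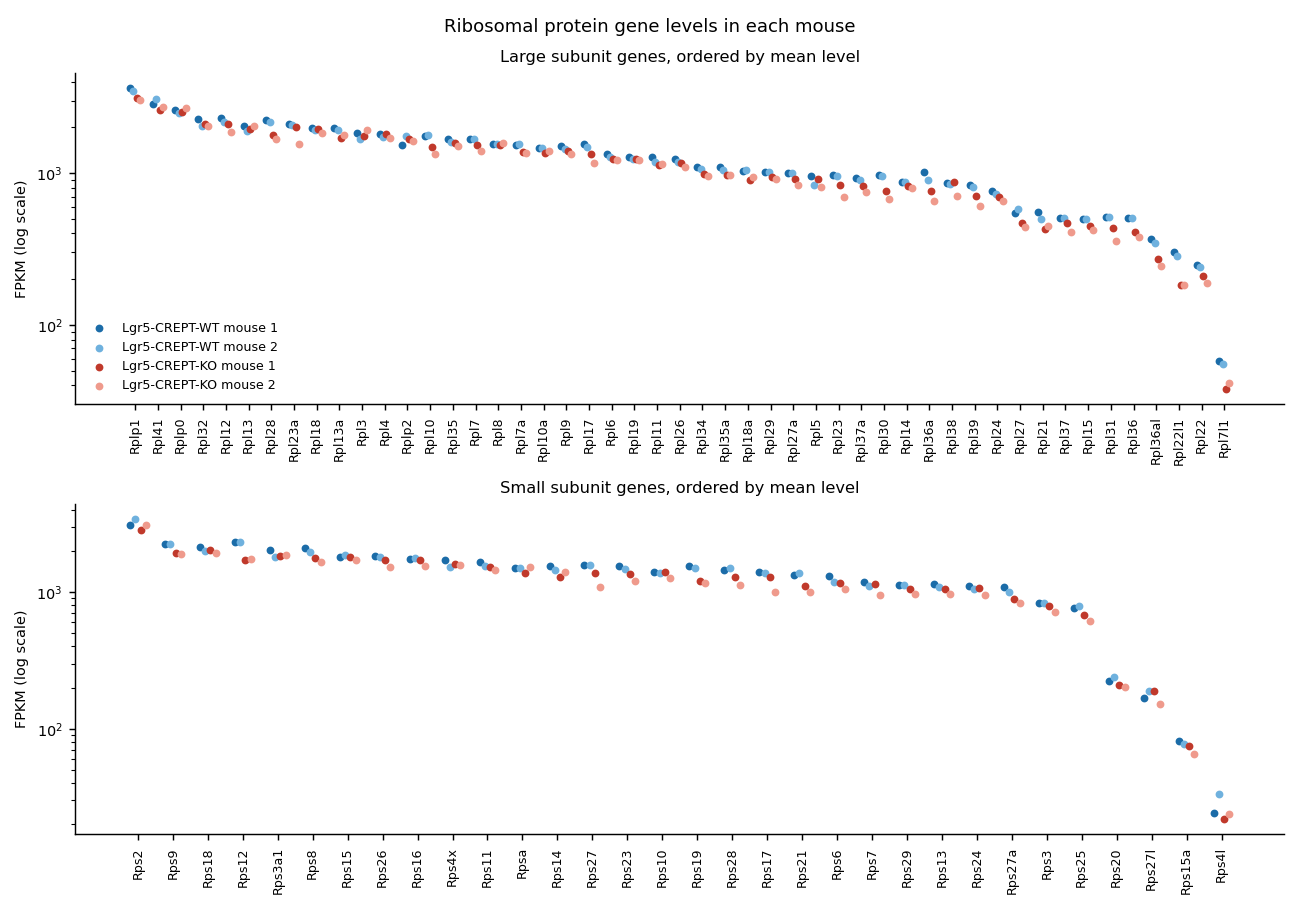
FPKM of 81 of the 82 tested members in each of the 4 mice, on a log axis, with large subunit genes above and small subunit genes below, ordered by mean level. Means of the tested members reach from 25.7 to 3311 FPKM. Of these members 53 have a mean above 1000 FPKM and 3 have a mean under 100 FPKM.

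The low end of the range held several second copies, along with Rps15a, a regular small subunit gene listed with a mean of 75.1 FPKM. Of the words of 50 bases in the Rps15a transcript, 32.1% also occur in Rps15a-ps6, which was at 120 to 146 FPKM, so that its level is uncertain. Rpl7l1 had the lowest mean of the tested large subunit genes, 48.2 FPKM, and Rps4l, which the annotation lists as a transcribed pseudogene, the lowest of the small subunit, 25.7 FPKM. Rpl3l, the form of Rpl3 found in striated muscle, was between 0.04 and 0.16 FPKM. Rpl10l and Rpl39l, known from the testis, were listed at 0 in 3 and in 2 of the 4 mice. Rpl3l, Rpl10l, Rpl39l and Rpl32l were below the filter on low values, so that 82 members were tested, 49 of the large and 33 of the small subunit.

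Summed over all members, the FPKM was 111171 and 108603 in the WT mice and 100768 and 96103 in the KO mice. As a share of all FPKM this was 22.4% and 21.7% against 21.5% and 20.3%. The mean share was 22.1% ± 0.477 (SD, n = 2) in WT and 20.9% ± 0.851 (SD, n = 2) in KO. The groups did not overlap, but the exact permutation test, two-sided, gave p = 0.33, the smallest that 2 against 2 mice allow. The large subunit took 13.0% and 12.6% of all FPKM in WT and 12.5% and 11.9% in KO. The small subunit took 9.42% and 9.15% against 8.98% and 8.40%. The subunits thus lay at 95.3% and 93.6% of their WT share.

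Gene by gene, 2 of the 82 tested members passed an adjusted p of 0.05, both lower in KO and both of the large subunit. Over all genes tested, limma called 2.67% lower and 0.412% higher, 337 and 52 genes. With the FPKM of each mouse scaled to the same sum, these were 242 and 86 genes. No member was called higher by limma. At an unadjusted p under 0.05, 26 members were lower and 0 higher, against 15.2% and 9.27% of all genes. No member passed the threshold that the study used for its own calls, which adds a log2 fold change beyond 1 and which 1.01% of all genes passed downwards and 0.127% upwards. With any 1 of the 4 mice left out, 0 genes passed in either direction, members included, and the adjusted p of Rpl22l1 lay between 0.13 and 0.295.

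Point estimates lay on one side of 0 for most members. They were below 0 for 45 of 49 large subunit genes and for all 33 small subunit genes, against 52.3% of all genes tested. With equal sums in each mouse this was 39 of 49 and 25 of 33. Both KO mice were below both WT mice for 61 of the 82 members (74.4%), where 31% of all genes showed that order. The median log2 fold change was -0.17 for the large subunit and -0.16 for the small subunit, and -0.01 for all genes tested. Equal sums in each mouse move the estimates of all genes upwards. The median was then -0.09 over the members and 0.06 over all genes tested.

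**Figure D2:**
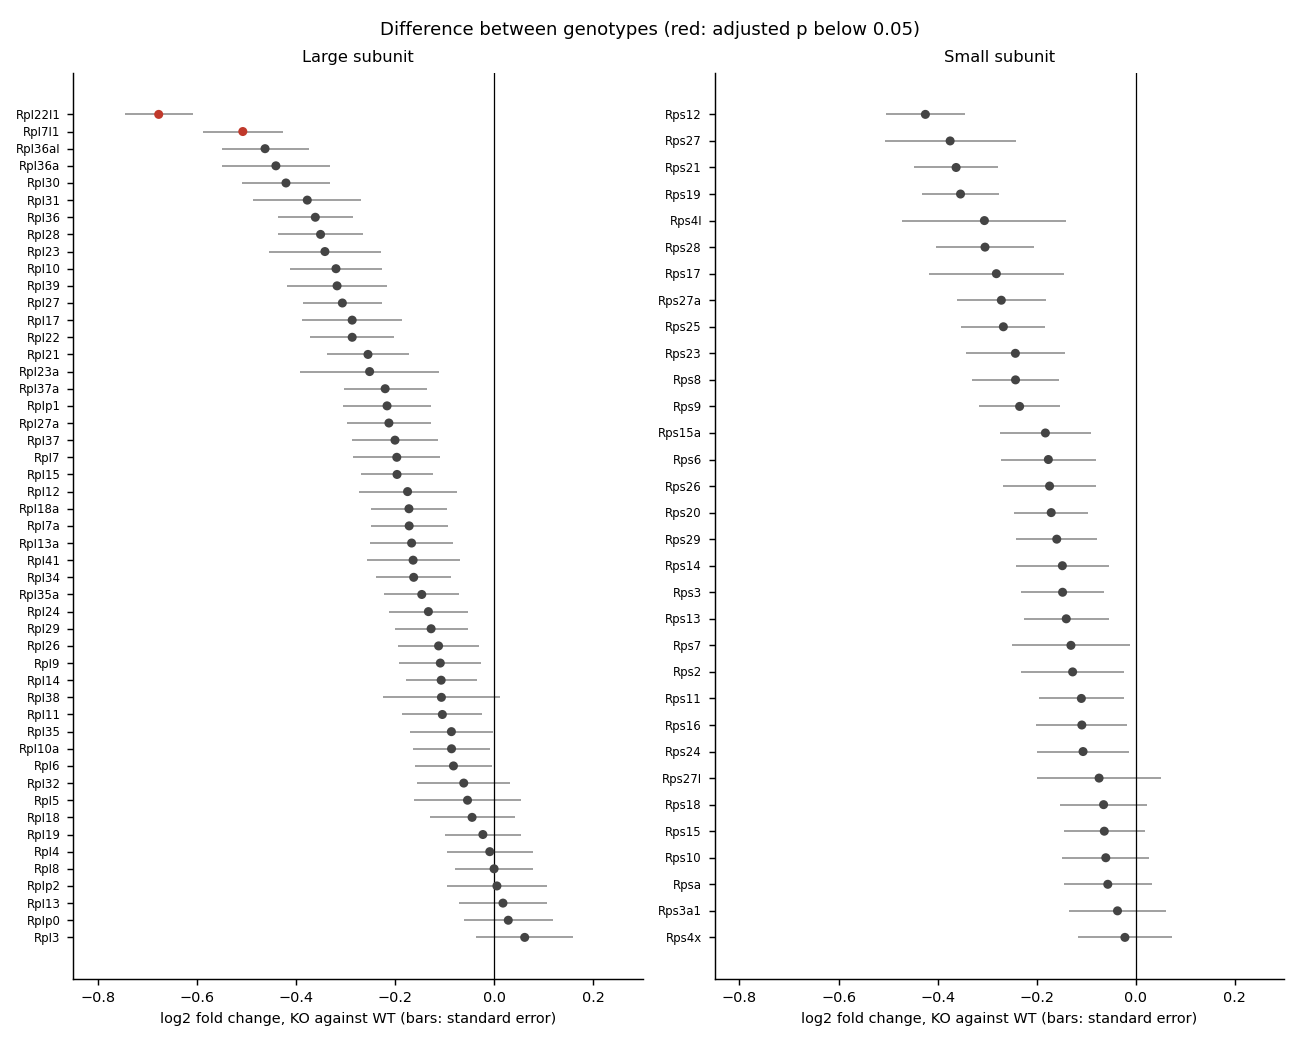
Log2 fold change of 81 of the 82 tested members, KO against WT, with its standard error from limma, for 49 large subunit genes on the left and 32 small subunit genes on the right. The 2 red points, Rpl22l1 and Rpl7l1, have an adjusted p below 0.05.

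The mice of one genotype also differed. The median difference of the members from the WT mean was 0.02 and -0.02 on the log2 scale in the WT mice, -0.12 in KO mouse 1 and -0.22 in KO mouse 2. Mouse 2 of the KO group was the lowest of the 4 for 61 members. Without it the median over the members was -0.12, and without mouse 1 it was -0.22.

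Rpl22l1, a paralog of the RNA-binding protein Rpl22, showed the lowest fold change of any member. Its level was 301.38 and 285.11 FPKM in the WT mice and 181.91 and 184.37 FPKM in the KO mice. The groups stood apart, with a spread within each genotype much smaller than the gap between them. Rpl22l1 fell (log2 fold change -0.68 ± 0.07, standard error, limma adjusted p = 0.0319, between 0.0165 and 0.295 over the alternatives). Rpl22 was at 247.18 and 238.89 FPKM in WT and at 211.31 and 187.65 FPKM in KO, and its log2 fold change of -0.29 did not pass (limma adjusted p = 0.131). The ratio of Rpl22l1 to Rpl22 was 1.22 and 1.19 in the WT mice and 0.861 and 0.983 in the KO mice. The copies were thus listed at nearly the same level in KO mouse 2. Of the 50-base words of the Rpl22l1 transcript, 56.5% also occur in Gm15421, a gene whose own level was at most 0.54 FPKM in any mouse.

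Rpl7l1, which resembles Rpl7, was at 58.1 and 55.3 FPKM in WT and at 37.92 and 41.62 FPKM in KO. The groups did not overlap, and the call lay at the edge of the threshold (log2 fold change -0.51 ± 0.08, standard error, limma adjusted p = 0.0498, between 0.031 and 0.295 over the alternatives). It kept an adjusted p below 0.05 in 7 of 21 alternatives, and Rpl22l1 in 14. Rpl7 was at 1688 and 1684 FPKM against 1538 and 1407 FPKM (log2 fold change -0.20, limma adjusted p = 0.249). Only 2.0% of the words of Rpl7l1 occur in another gene of the table.

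The ratio of Rpl7l1 to Rpl7 was 0.0344 and 0.0328 in WT and 0.0246 and 0.0296 in KO. For no pair of related genes was the difference between the copies tested. Rpl36a and its copy Rpl36al had log2 fold changes of -0.44 and -0.46 (limma adjusted p = 0.0974 and 0.064). Rpl36al was at 368.63 and 344.16 FPKM in WT and at 273.11 and 244.4 FPKM in KO. Its ratio to Rpl36a stayed between 0.361 and 0.381 in the 4 mice. Rps27, a zinc finger protein of the small subunit, was at 1578 and 1583 FPKM against 1373 and 1082 FPKM, a log2 fold change of -0.37 that did not pass (limma adjusted p = 0.174). Rps27l, its p53-inducible copy, overlapped between genotypes, at 168.43 and 187.93 against 187.79 and 152.05 FPKM. Its ratio to Rps27 was 0.107 and 0.119 in WT and 0.137 and 0.14 in KO, without overlap. Rps4x, the X-linked form, overlapped as well (log2 fold change -0.02), and Rps4l had a log2 fold change of -0.31 with a standard error of 0.17.

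**Figure D3:**
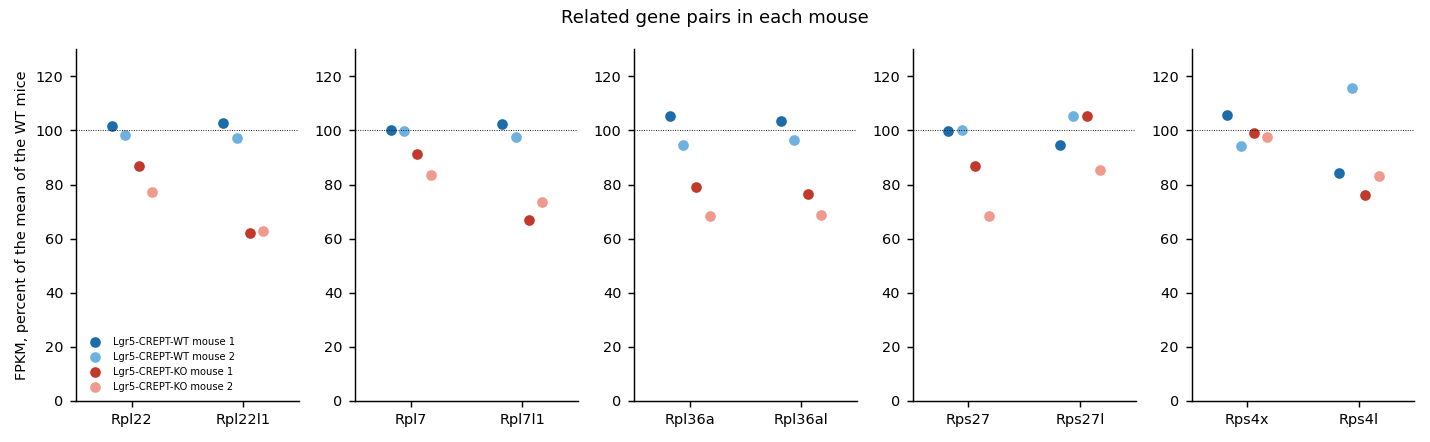
FPKM of 5 pairs of related genes in each mouse, as a percentage of the mean of the 2 WT mice, on axes that start at 0. Both KO mice lie further below 100 for Rpl22l1 and Rpl7l1 than for Rpl22 and Rpl7, whereas Rpl36a and Rpl36al lie at similar heights.

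Of the small subunit, Rps12 had the lowest fold change. It was at 2323 and 2301 FPKM in WT and at 1711 and 1733 FPKM in KO. The mice of each genotype lay close together and the groups did not overlap, yet the gene did not pass (log2 fold change -0.42 ± 0.08, standard error, limma adjusted p = 0.0638, between 0.0225 and 0.329 over the alternatives). Rps21 was at 1336 and 1371 FPKM against 1100 and 1007 FPKM (log2 fold change -0.36, limma adjusted p = 0.0896). With a minimum mean of 10 FPKM in place of 0.5, which leaves 6898 genes to adjust over and was chosen after seeing the data, 5 members (6.1%) passed: Rpl22l1, Rpl7l1, Rpl36al, Rps12 and Rps19. Over all genes at that minimum, 364 (5.28%) were called lower.

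At the other end were members with estimates near or above 0. Rpl3, at the peptidyl transferase centre, was at 1837 and 1684 FPKM in WT and at 1750 and 1925 FPKM in KO, and Rplp0, the base of the stalk, at 2597 and 2500 against 2517 and 2683 FPKM. The genotypes overlapped for both. Rplp2, the partner of Rplp1, had a log2 fold change of 0.01 and Rpl13 one of 0.02. Rpsa and Rps3a1 of the small subunit had log2 fold changes of -0.06 and -0.04, whose sign turned with equal FPKM sums in each mouse.

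Members with a role outside the ribosome were among those that did not pass. Rpl5 and Rpl11, which bind Mdm2 when ribosome assembly fails, had log2 fold changes of -0.05 and -0.10. Rps6, the substrate of the S6 kinases, was at 1307 and 1191 FPKM against 1157 and 1053 FPKM (log2 fold change -0.18, limma adjusted p = 0.326). Rps27a, made as a fusion to ubiquitin, had a log2 fold change of -0.27 (limma adjusted p = 0.154). Rps9 and Rps18, the next most abundant small subunit genes after Rps2, had log2 fold changes of -0.23 and -0.06.

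The fold changes followed the length of the encoded protein. Over the 81 tested members with an annotated coding sequence, Spearman's coefficient between the number of residues and the log2 fold change was 0.474, and over the 11623 other genes with a coding sequence it was 0.414. These are descriptions across genes of the same 4 libraries, and genes are not independent replicates. Members encode short proteins, with a median of 151 residues against 453 for the other genes. Between mice of one genotype the coefficient over the other genes was -0.159 for the WT pair and -0.0671 for the KO pair.

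Within a class of length, members and other genes had similar medians. For proteins of 100 to 149 residues the median log2 fold change was -0.24 over 29 members and -0.23 over 609 other genes. For 150 to 199 residues it was -0.13 over 19 members and -0.15 over 729 other genes, and for 200 to 299 residues -0.12 over 20 members and -0.12 over 1631 other genes. For proteins under 100 residues it was -0.21 over 10 members and -0.25 over 274 other genes. For 300 to 599 residues the signs differed, with 0.03 over only 3 members and -0.02 over 4520 other genes. The other genes of 600 residues or more, a class without members, had a median of 0.11. The same order was present among other genes of at least 200 FPKM, with -0.21 for 100 to 149 residues and 0.11 for 600 or more.

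**Figure D4:**
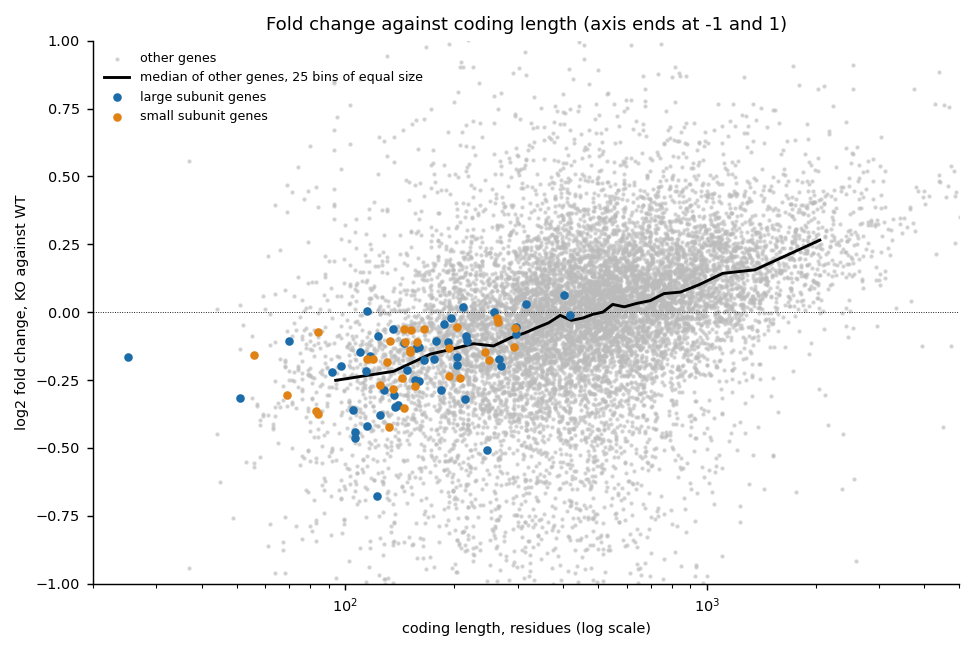
Log2 fold change against coding length in residues, on a log axis, for large subunit genes (blue), small subunit genes (orange) and all other tested genes (grey), with the median of the other genes in bins of equal size as a line. The members scatter around the line, which climbs from below -0.2 for the shortest proteins to above 0.2 for the longest. Of the genes with a coding length, 295 lie beyond the plotted fold changes and 9 beyond the plotted lengths.

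When a smooth trend in coding length was removed from each mouse, an alternative chosen after seeing the data, the median was 0.01 for the large and 0.02 for the small subunit. Then 38 of 81 members had a point estimate below 0, and Rpl22l1 was the 1 member that passed (log2 fold change -0.46, limma adjusted p = 0.0481). This was 1.23% of members, where 2.43% of all genes were called lower. Removing a trend in transcript length gave medians of -0.00 and 0.02, and 0 members passed (limma), where Rpl22l1 had an adjusted p of 0.0639. In that fit 1.62% of all genes were called lower. Removing a trend in mean expression gave -0.03 for each subunit. The median over the members kept its sign under each of the 3 other scalings and was turned by removal of the length trend. The part of RNA integrity, fragment selection and library preparation in the length trend was not tested, as none of these is recorded in the table.

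**Figure D5:**
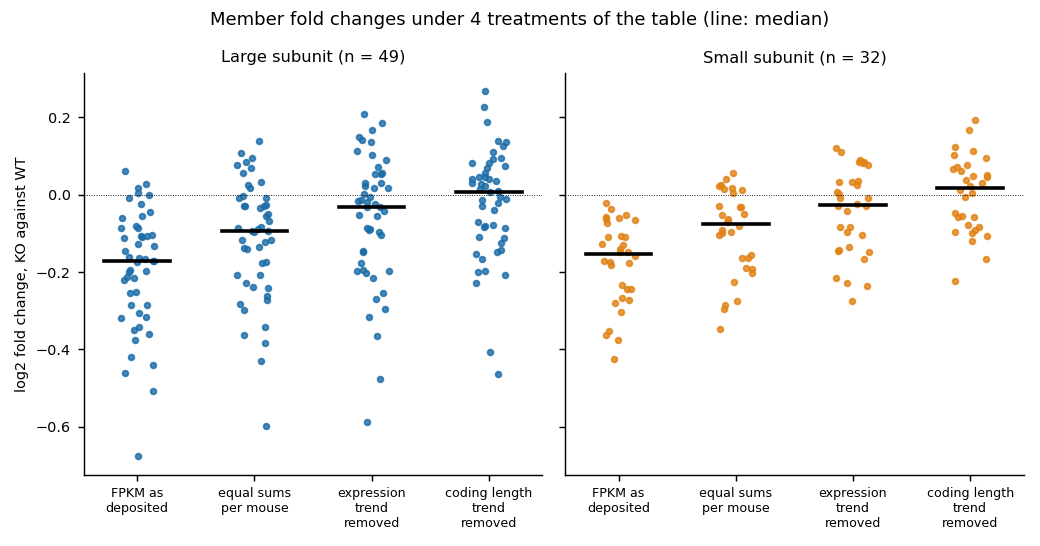
Log2 fold change of 49 large and 32 small subunit genes with a coding length, under the table as deposited, equal FPKM sums in each mouse, removal of a trend in mean expression and removal of a trend in coding length. Each point is a gene and each line a median, and the medians move from -0.17 to 0.01 for the large subunit.

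Many members are hard to measure singly, because their sequence recurs in processed pseudogenes. Of the 82 tested members, 49 shared at least 50% of the 50-base words of their transcript with another annotated gene, and Rps27 shared 98.6%. For 23 members, some words occur in a gene that the table lists. Rpl31 shares 46.1% with Rpl31-ps12, which was itself at 589.26 and 540.27 FPKM in WT and at 474.32 and 391.28 FPKM in KO. Rpl31 was at 512.54 and 513.55 against 433.94 and 359.33 FPKM, with log2 fold changes of -0.38 and -0.39 for the gene and its partner. Rps15a and Rps15a-ps6 had -0.18 and -0.18, whereas Rpl14 and Rpl14-ps1 had -0.11 and 0.04, and Rpl37 and Rpl37rt -0.20 and 0.17. Fold changes of such members are uncertain in that respect.

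The starts of the genes are shown because the TOP motif is what this family is known for. RefSeq promoters (GRCm38.p6) were on hand for 65 of the 86 members. Each line gives 15 bases before and 15 from the annotated start on the sense strand, in lower case, with the longest run of C and T in capitals where it has at least 6 bases. Shown are the called genes, the lowest of the small subunit and members with clear runs.
Rpl22l1: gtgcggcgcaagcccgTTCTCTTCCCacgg
Rpl7l1: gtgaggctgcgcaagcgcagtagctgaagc
Rps12: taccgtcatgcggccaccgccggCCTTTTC
Rps27: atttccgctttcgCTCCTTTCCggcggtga
Rpl28: ccgcctctcgtgTCTCTCTTTCCgtctccg
Rps18: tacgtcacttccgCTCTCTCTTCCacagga
Rplp2: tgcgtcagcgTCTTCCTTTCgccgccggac
Rps6: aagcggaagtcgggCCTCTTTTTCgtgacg
These windows lie at chr3:28805493-28805522 (plus strand), chr17:46782642-46782671 (minus), chr10:23787195-23787224 (minus), chr3:90213634-90213663 (minus), chr7:4792950-4792979 (plus), chr17:33955651-33955680 (minus), chr7:141447636-141447665 (plus) and chr4:86857353-86857382 (minus), in the order of the lines, and each spans a RefSeq start. The Rps12 start used lies inside the extent that RefSeq lists for the gene, so its window may hold transcribed sequence on both sides.

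A run of at least 6 was held by 55.4% of the 65 members and by 29.1% of 27025 genes with a promoter. A run of at least 5 that opens with C between 2 bases before the start and base 3 was held by 32.3% of members and by 8.96% of all. The letters CCGGAAG, on either strand of the 300-base promoter, were present in 38.5% of members and in 9.12% of all, and AAGATGGC in 7.69% and 2.88%. Rpl7l1 showed no run of 6 in the window printed, and Rpl22l1 held one of 10 bases. Members with a run of 6 had a median log2 fold change of -0.17 (n = 34) and those without it of -0.14 (n = 27). Their median coding lengths were 140 and 151 residues. The difference between the 2 groups of members, and the part of length in it, was not tested. These matches describe letters at annotated starts, which may differ from the starts used in these cells.

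Other genes around the ribosome were read from lists. Fau and Rack1, subunit proteins outside the naming rule, did not pass (log2 fold changes -0.15 and -0.07, limma adjusted p = 0.376 and 0.653). Of 17 other TOP mRNAs, none passed in either direction (limma; 2 lower and 2 higher at an unadjusted p under 0.05), and their median was -0.04. Eef1a1, the elongation factor with the highest level in the list, was at 7719 and 7329 FPKM in WT and at 7484 and 7568 FPKM in KO. The log2 fold changes of the list lay between -0.44 for Gas5, a noncoding host of snoRNAs, and 0.20 for Eif3f, a subunit of an initiation factor.

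Of 18 regulators of TOP mRNAs and mTORC1, 1 fell and 0 rose at an adjusted p of 0.05 (limma; at an unadjusted p under 0.05, 2 lower and 5 higher). Of all genes tested, 2.67% were called lower and 0.412% higher, and 15.2% and 9.27% at the unadjusted p. Mlst8, a subunit of both mTOR complexes, was at 17.23 and 18.3 FPKM in WT and at 11.18 and 11.19 FPKM in KO. It fell with no overlap (log2 fold change -0.64, limma adjusted p = 0.0376). Rps6kb2, an S6 kinase, had the lowest fold change of the list and did not pass (log2 fold change -0.76, limma adjusted p = 0.0727). Larp1, which binds the TOP motif, was at 67.72 and 68.1 against 83.45 and 84.01 FPKM and did not pass (log2 fold change 0.30, limma adjusted p = 0.0741). Mtor had a log2 fold change of 0.45 (limma adjusted p = 0.0847). With the trend in coding length removed, Larp1 and Mtor had 0.15 and 0.12, and 1 gene of the list was called in each direction by limma, Mlst8 at -0.60 and Eif4ebp2, a repressor of translation, at 0.62.

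Among 23 chaperones, importers and late assembly factors none passed (limma; 1 lower and 2 higher at an unadjusted p under 0.05), and the median was 0.01. Sbds, which helps to release Eif6 from the large subunit, had a log2 fold change of -0.39 (limma adjusted p = 0.0692). Among 20 genes that transcribe ribosomal protein genes and rDNA none passed (limma; 2 lower and 3 higher at an unadjusted p under 0.05). Myc was at 74.7 and 91.01 FPKM against 101.62 and 109.4 FPKM (log2 fold change 0.35, limma adjusted p = 0.151).

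In the p53 arm, which free Rpl5 and Rpl11 are known to engage, 3 of 12 genes rose, where 0.412% of all genes were called higher (limma; 0 lower and 8 higher at an unadjusted p under 0.05). Both KO mice were above both WT mice for 9 of the 12, where 25.6% of all genes showed that order. At an unadjusted p under 0.05, 9.27% of all genes were higher. Phlda3, an inhibitor of Akt, was at 2.04 and 2.89 FPKM in WT and at 12.69 and 12.66 FPKM in KO (log2 fold change 2.17, limma adjusted p = 0.028). Ccng1 and Bbc3, which encodes Puma, rose as well (log2 fold changes 0.72 and 0.99, limma adjusted p = 0.0373 and 0.046). Cdkn1a and Mdm2, also p53 targets, had log2 fold changes of -0.04 and 0.09. Trp53 itself overlapped between genotypes.

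Mitochondrial ribosomal proteins serve a separate ribosome and are encoded by other genes. Of 77 tested, 10 fell and 0 rose at an adjusted p of 0.05 (limma; 43 lower and 0 higher at an unadjusted p under 0.05), with a median of -0.24. Both KO mice were below both WT mice for 58 of them (75.3%), where 31% of all genes showed that order. Over all genes, 2.67% were called lower and 15.2% had an unadjusted p under 0.05 in that direction. Mrpl17 was at 5.11 and 5.14 FPKM against 1.63 and 1.72 FPKM (log2 fold change -1.37, limma adjusted p = 0.0301). With the trend in coding length removed, their median was -0.10, and 5 were called lower in place of 10. In that fit 2.43% of all genes were called lower.

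Cells of other types in the sort were read from markers. All 8 enteroendocrine markers were lower in both KO mice, and 6 passed. Of all genes tested, 31% showed that order and 2.67% were called lower. The 8 markers summed to 172 and 194 FPKM in WT and to 51.3 and 64.3 FPKM in KO, with Chgb as the most abundant. The 7 goblet markers summed to 1344 and 2171 FPKM against 749 and 776 FPKM, with Tff3 highest and Spink4 as the 1 that passed. In bulk RNA, fewer cells of a type and less RNA for each cell cannot be told apart. The 6 Paneth markers, led by Defa24, summed to 1394 and 1005 FPKM in WT and to 830 and 2445 FPKM in KO, so that KO mouse 2, the mouse with the lowest ribosomal protein share, was highest. The 6 tuft markers, led by Avil, summed to 17.2 and 33.9 against 14.4 and 5.87 FPKM, and the 6 enterocyte markers, led by Fabp1, to 157 and 248 against 142 and 299 FPKM. The 4 immune markers summed to 510 and 1168 against 282 and 880 FPKM, nearly all of it Cd74, which crypt cells can also express, while Ptprc was at most 1.35 FPKM. The 4 fibroblast markers summed to at most 0.48 FPKM and the 3 erythroid markers to at most 4.1 FPKM, Hbb-bs being listed at 0 in both KO mice. The part of these cells in the ribosomal protein values was not tested.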

How the data were processed

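The authors sequenced RNA of sorted cells on BGISEQ-500 and deposited FPKM per gene and mouse. Their methods name GRCm38.p6, Bowtie2 and RSEM, and the submitters' processing notes name mm10, HISAT, Bowtie2 and RSEM, without versions of the tools or, for HISAT, a role. FPKM are not counts, so limma 3.58.1 in R 4.3.3 was fitted to log2(FPKM + 0.5) with an intensity trend, over genes whose mean reached 0.5 FPKM, with Benjamini-Hochberg adjustment over all of them. The study's methods used a count model. Lengths came from GENCODE M21, summaries from Python 3.11.15 with pandas 2.3.3. Members and lists were chosen with earlier results of these data known. Named genes were the called members, the 3 lowest, 3 highest and 3 most abundant of each subunit, stalk proteins and others of known extra roles, pairs of copies, and called or defining genes of the lists, of which 1 member is not printed. Others named, such as Rpl31, Rps15a, Rpl28 and Larp1, were added once their values had been seen. The fit was tested on simulated data with known changes. It recovered the planted changes on its own scale, but with the 0.5 FPKM minimum the share of false calls was well above the nominal one. With a minimum of 10 FPKM that share came close to the nominal one. Alternatives are given in the closing part.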

Additional observations from a re-analysis of the deposited data

How the results depend on the processing

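Of the 21 alternatives, 7 were chosen after seeing the data: removal of a trend in coding length or in mean expression, and minimum means of 1, 2, 5, 10 and 20 FPKM. Rpl22l1 was below 0 in all 21 and kept an adjusted p below 0.05 in 14, and Rpl7l1 was below 0 in all 21 and kept it in 7. The range of adjusted p was 0.0165 to 0.295 for Rpl22l1 and 0.031 to 0.295 for Rpl7l1. Both Rpl22l1 and Rpl7l1 were called with a pseudocount of 0.1, and Rpl22l1 was the 1 member called with a pseudocount of 1 and under each of the 3 other scalings. Of all genes, 2.73% were called lower with a pseudocount of 0.1 and 2.55% with a pseudocount of 1. No member was called higher in any of the 21 (limma; 0 at an unadjusted p under 0.05 in the fit reported above).

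Counts over all genes followed the genes that entered and the variance model. Without a filter on low values, 0 genes were lower and 0 higher, 0 members among them, with a smallest adjusted p of 0.105. Without an intensity trend, 4 genes were lower and 0 higher, with 0 members. With equal sums in each mouse, 242 were lower and 86 higher, with 1 member. The medians were -0.093 for the large and -0.081 for the small subunit, and 0.058 over all genes tested. With median-ratio scaling 310 genes were lower (2.46%) and 54 higher, with 1 member (1.22%). With scaling to the FPKM sum of the non-members 271 were lower (2.15%) and 68 higher, with 1 member (1.22%). The large subunit median was then -0.12, and the median over all genes tested 0.038. Over transcripts of at least 200 bases, 536 genes were lower and 129 higher, with 3 members. The cause was not tested.

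Minimum means above 0.5 FPKM leave fewer genes to adjust over. At minimums of 1, 2, 5, 10 and 20 FPKM, all genes called lower were 360 (3.09%), 437 (4.08%), 447 (4.96%), 364 (5.28%) and 260 (6.11%), and those called higher 62, 91, 116, 98 and 68. Members called lower were 2 (2.44%), 3 (3.66%), 4 (4.88%), 5 (6.1%) and 7 (8.54%) of 82, so both shares were higher at the higher minimums. At 20 these were Rpl22l1, Rpl7l1, Rps12, Rpl36al, Rps19, Rpl28 and Rpl30. These minimums were tried after the simulated data showed too many false calls with the minimum of 0.5 FPKM.

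Samples carry replicate numbers, and a block for these was fitted. With it, 168 genes were lower and 15 higher, with 1 member. Deviations of samples with the same number had a correlation of -0.0266 over the 12621 genes tested and of 0.0591 over the 82 members tested. Mouse 2 was below mouse 1 for 58 of these members in WT and for 63 in KO. What the numbers stand for is not recorded, and whether they pair the samples was not tested. The block also uses up a degree of freedom.

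With 1 mouse left out, the lone mouse is assumed to vary like the other group. The counts of all genes lower, all genes higher and members lower were then 0 to 0. The median lay between -0.19 and -0.14 for the large subunit and between -0.23 and -0.10 for the small, and the difference in share between -1.80 and -0.594 percentage points. Among members printed under the rule for named genes, the sign turned for Rpl13 (-0.033 to 0.069), Rpl3 (-0.0070 to 0.13), Rpl5 (-0.15 to 0.039), Rplp0 (-0.018 to 0.075), Rplp2 (-0.095 to 0.11), Rps27l (-0.23 to 0.078), Rps3a1 (-0.13 to 0.051), Rps4x (-0.11 to 0.063) and Rpsa (-0.13 to 0.015).

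Removal of a trend in transcript length left 202 genes lower and 20 higher, with 0 members. The medians were -0.00017 for the large and 0.018 for the small subunit. The sign turned for 38 members, of those printed under the rule for named genes for Rpl11 (0.080), Rpl41 (0.095), Rplp1 (0.034), Rps18 (0.17), Rps2 (0.030), Rps27l (0.18), Rps3a1 (0.12), Rps4x (0.14), Rps6 (0.00096) and Rpsa (0.018). Removal of a trend in coding length left 284 genes lower (2.43%) and 49 higher, with 1 member (1.23%), and gave medians of 0.0070 and 0.017. The sign turned for 39 members, of those printed under the rule for named genes for Rpl11 (0.045), Rpl39 (0.022), Rpl41 (0.27), Rpl5 (0.014), Rplp1 (0.0070), Rps18 (0.11), Rps27l (0.19), Rps3a1 (0.052), Rps4x (0.067) and Rpsa (0.012). Removal of a trend in mean expression left 311 genes lower (2.46%) and 62 higher, with 1 member (1.22%), and gave medians of -0.032 and -0.028. The sign turned for 28 members, of those printed under the rule for named genes for Rpl11 (0.030), Rpl5 (0.072), Rps18 (0.084), Rps2 (0.034), Rps27l (0.0071), Rps3a1 (0.11), Rps4x (0.12) and Rpsa (0.084). A trend fitted over all genes takes any change that itself follows length or level with it. The cause was not tested.

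With equal sums in each mouse the sign turned for 14 members, of those printed under the rule for named genes for Rpl5 (0.025), Rps18 (0.013), Rps27l (0.0040), Rps3a1 (0.041), Rps4x (0.056) and Rpsa (0.022). With the sum of the non-members it turned for 8 members, of those printed under the rule for named genes for Rpl5 (0.0026), Rps3a1 (0.019) and Rps4x (0.034). The cause was not tested.

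With 2 mice of each genotype the exact permutation test cannot reach 0.05, and the tests on single genes rest on a spread pooled over genes. FPKM give no read counts, so the counting error of low values is unknown. The table lists 1 value for each gene symbol, so isoforms, unannotated starts and fragments shared with pseudogenes could not be separated. RNA levels do not give the amount of ribosomal protein or its translation, through which TOP mRNAs are mostly controlled. The sex of each mouse is not given, and the marker lists cover a few genes of each cell type.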
